A study of Equus asinus with 2 samples.

Results

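Cells with much ACTA2 RNA and little or no RGS5 RNA were described in single-cell RNA libraries of fetal donkey (Equus asinus) gonad. ACTA2 encodes smooth muscle alpha-actin and RGS5 a regulator of G protein signalling known as a marker of pericytes and vascular smooth muscle. A cell barcode entered the gate when it had at least 2000 UMIs (unique molecular identifiers, or tags that count captured RNA molecules), ACTA2 at 10 or more per 10000 of its UMIs with at least 5 ACTA2 UMIs, and RGS5 under 1 per 10000. The gate held 201 of 11076 barcodes in the 8-week library, a share of 1.81% (1.57 to 2.08), and 51 of 7742 in the 4-week library, a share of 0.659% (0.491 to 0.865). That makes 252 of the 18818 barcodes with at least 2000 UMIs, and of 23531 in all. ACTA2, RGS5 and the UMI total chose these cells, so their values are given as a description, and the working name "myoid-like" was checked against other genes.

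The study compared early stages of gonad formation. Its 8-week library is labelled as tissue of the ovary, and its 4-week library as mesonephros together with gonad, the mesonephros being the transient embryonic kidney beside the forming gonad. No treatment, strain or allele is named for either, the tissue around the ovaries was trimmed before digestion with collagenase, and the number of fetuses in each library is not given. Each stage is 1 library, so no test of a difference was possible. The 95% intervals given here cover counting error and say nothing of variation between fetuses, and stage, dissected tissue, depth and library cannot be told apart.

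Peritubular myoid cells are flat contractile cells that wrap the cords and later the tubules of the fetal testis. In the mouse they form from interstitial precursors that receive Desert hedgehog from Sertoli cells, through the receptor PTCH1 and the factor GLI1, and they lay down basement membrane with the Sertoli cells. Vascular smooth muscle cells and pericytes, together called mural cells, surround vessels, use NOTCH3 signalling from the endothelium, and carry surface proteins such as MCAM and CSPG4. Both kinds of cell contain ACTA2 and TAGLN, so these genes alone do not separate them, and fetal gonadal stroma can also carry some of each.

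The libraries held 14593 barcodes with 155128130 UMIs at 8 weeks, and 8938 barcodes with 122341903 UMIs at 4 weeks. The gated cells had a median of 7442 UMIs (2256 to 66160) and 3217 genes at 8 weeks, against 7870 UMIs (3670 to 18811) and 3201 genes at 4 weeks, and their summed UMIs were 2118983 and 423644. The library labelled ovary went against its label: it held 1495 UMIs of SRY, the testis-determining gene of the Y chromosome, and 739 barcodes with AMH at 10 or more per 10000 and at least 2 UMIs of SOX9, both Sertoli cell genes, while the 4-week library held 427 SRY UMIs and 652 such barcodes. Within the gate, SRY had 20 UMIs in 19 cells at 8 weeks, or 9.44 CPM (UMIs per 1000000 summed UMIs), and 0 UMIs at 4 weeks, which allows up to 7.08 CPM. The 8-week value was 1.72 CPM in RGS5-positive cells, 0.432 in endothelial cells and 13.7 in stroma. The libraries shared 38 barcode sequences, of which 0 were in the gate.

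ACTA2 in the gated cells had a lowest, median and highest value of 10, 14.6 and 166.2 per 10000 at 8 weeks, and 10.1, 12.8 and 37.9 at 4 weeks. Most gated cells therefore lay near the lower limit. Just inside it, at 10 to 11 per 10000, were 29 cells at 8 weeks and 8 at 4 weeks; just outside, at 9 to 10, were 54 and 16 barcodes. No RGS5 UMI was found in 170 of the 201 cells at 8 weeks and in 50 of the 51 at 4 weeks. In a cell below 10000 UMIs, 1 RGS5 UMI already exceeds the RGS5 limit, so there the gate itself set the absence. The 31 gated cells with an RGS5 UMI at 8 weeks thus lay among the 67 of at least 10000 UMIs. The 1 such cell at 4 weeks lay among 9. Just past the RGS5 limit, at 1 to 2 per 10000, lay 56 and 6 barcodes.

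The group nearest to the gate met the same ACTA2 limits with RGS5 at 1 or more per 10000. These RGS5-positive ACTA2-high cells numbered 327 at 8 weeks and 51 at 4 weeks, with a median ACTA2 of 24.2 and 17.8 per 10000. Gated cells thus made up 38.1% of all ACTA2-high cells at 8 weeks and 50% at 4 weeks. At 8 weeks that share was 60.0% in barcodes of 2000 to 5000 UMIs, 40.8% in those of 5000 to 10000 and 30.0% in deeper ones, and at 4 weeks it was 41.2%, 55.6% and 40.9%. A missing RGS5 UMI is more likely in a shallow cell, and how many gated cells carry unseen RGS5 was not tested. Further comparison groups were a stroma gate (DCN at 10 or more per 10000, ACTA2 and RGS5 under 1, 2332 and 546 cells) and an endothelial gate (PECAM1 and CDH5, 188 and 886 cells). Endothelial cells should lack smooth muscle RNA, and served to show the level of free RNA in the droplets.

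Of the 4 genes that mark the cells by name, TAGLN was plentiful and CNN1 and ACTG2 were scarce. TAGLN, which encodes the actin-binding protein transgelin, had a per-cell median of 8.57 per 10000 (0 to 89.6) at 8 weeks and 7.64 (0 to 33.8) at 4 weeks. Its summed level in gated cells was 1094 CPM (1050 to 1139) at 8 weeks and 996 CPM (903 to 1096) at 4 weeks. At 8 weeks the RGS5-positive cells had 2358 CPM, stroma 71.5 and endothelial cells 32.4; at 4 weeks the values were 1414, 100.1 and 12.7. Gated cells thus stood 15.3-fold (14.4 to 16.3) over stroma at 8 weeks and 9.96-fold (8.76 to 11.3) at 4 weeks, and below the RGS5-positive cells at both stages. The stroma gate held ACTA2 under 1 per 10000, and TAGLN climbed with ACTA2. The TAGLN ratio to stroma is thus set in part by the gates. The same holds for CNN1, ACTG2 and MYH11 below, which also climbed with ACTA2 at 8 weeks.

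CNN1, which encodes calponin 1, a regulator of smooth muscle contraction, had 27.8 CPM (21.2 to 35.9) in gated cells at 8 weeks, against 126.3 in RGS5-positive cells, 6.44 in stroma and 1.30 in endothelial cells. At 4 weeks CNN1 had 28.3 CPM (14.6 to 49.5) in gated cells, against 45.7, 5.29 and 0.345. ACTG2, the gamma actin of visceral smooth muscle, had 46.7 CPM (38.0 to 56.9) in gated cells at 8 weeks, against 237.5 in RGS5-positive cells and 2.05 in stroma. At 4 weeks ACTG2 had 26.0 CPM (13.0 to 46.5) in gated cells, against 154.5 and 1.94. Both genes were above stroma and endothelial cells at both stages, and ACTG2 was 5.08-fold (4.14 to 6.31) and 5.95-fold (3.13 to 12.5) lower than in RGS5-positive cells. The CNN1 ratio to RGS5-positive cells at 4 weeks had an interval that includes equality. ACTA2 and ACTG2 code for nearly the same protein, and how the authors' counting divided reads between them is not given.

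MYH11, the myosin heavy chain of mature smooth muscle, had 93.4 CPM (80.9 to 107.4) in gated cells at 8 weeks and 63.7 (42.0 to 92.7) at 4 weeks, against 315.8 and 530.9 in RGS5-positive cells and 17.9 and 17.6 in stroma. It was 3.38-fold (2.91 to 3.94) and 8.33-fold (5.59 to 12.9) lower in gated than in RGS5-positive cells. DES, the intermediate filament desmin, did the opposite at 8 weeks: gated cells had 103.8 CPM, against 64.8 in RGS5-positive cells, a ratio of 1.60 (1.34 to 1.91). The stroma gate had 112.2 CPM of DES at 8 weeks, so this gene did not set the gated cells apart from stroma. At 4 weeks DES had 155.8 CPM in gated cells, against 124.0 in RGS5-positive cells and 136.1 in stroma, with intervals of both ratios that include equality.

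**Figure D1:**
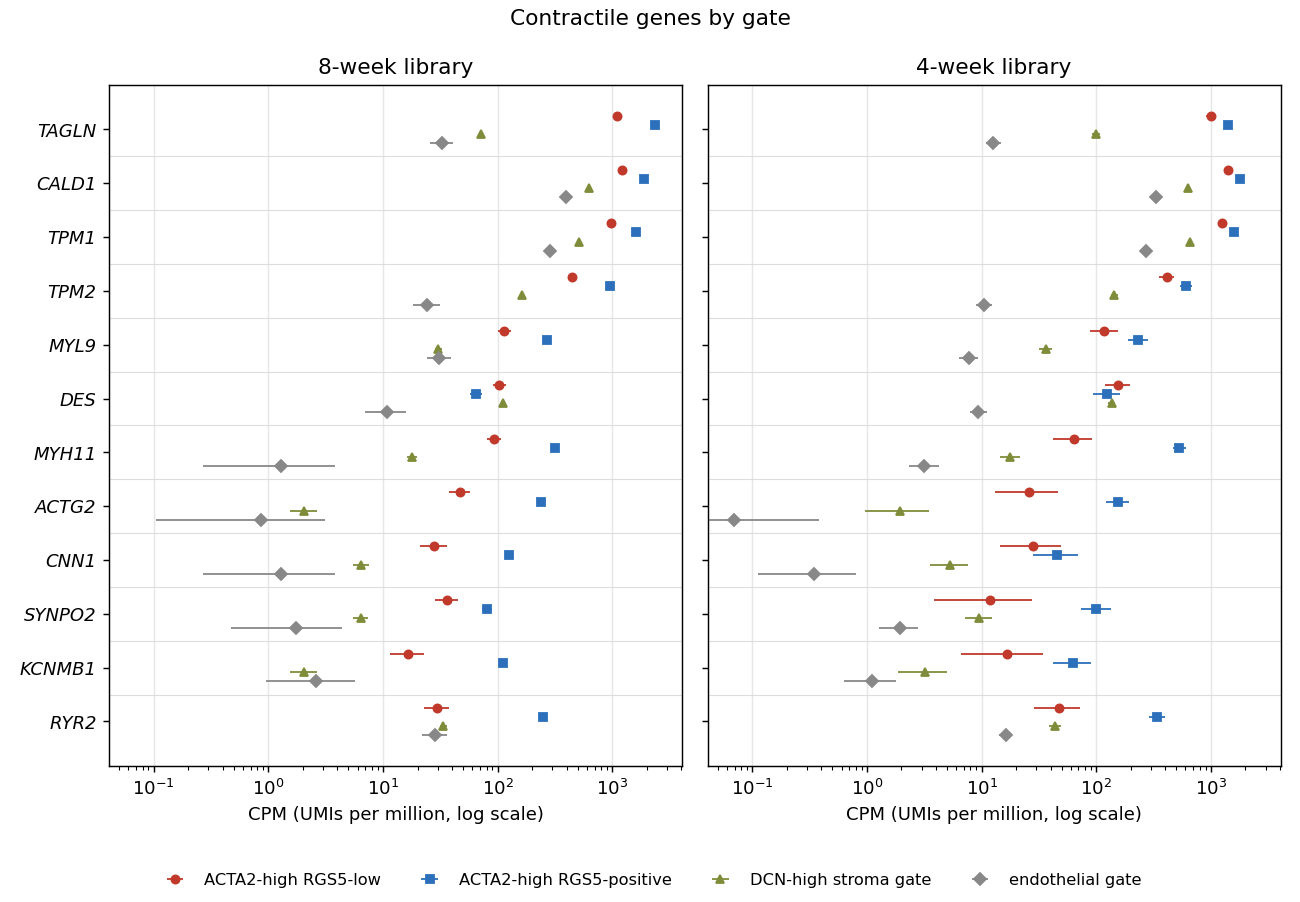
Contractile genes by gate, in CPM on a log scale, with 1 panel per library; points are summed levels and bars their 95% counting intervals. TAGLN in the gated cells (1094 CPM at 8 weeks) lies between the RGS5-positive cells (2358) and stroma (71.5), as do MYH11, ACTG2 and CNN1.

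Shares of cells with a UMI were compared after every cell was thinned to 2000 UMIs. TAGLN was then found in 74.1% of gated cells at 8 weeks, against 91.4% of RGS5-positive and 5.85% of endothelial cells, and in 72.5% at 4 weeks, against 92.2% and 1.58%. ACTG2 was found in 7.96% of gated cells at 8 weeks and 5.88% at 4 weeks, against 30.0% and 17.6% of RGS5-positive cells and 0.532% and 0.113% of endothelial cells. CNN1 was found in 6.47% and 3.92% of gated cells, against 18.0% and 9.80% of RGS5-positive cells and 0 endothelial cells at either stage. At full depth the shares of gated cells with a UMI at 8 and 4 weeks were 93.5% and 96.1% for TAGLN, 43.8% and 33.3% for MYH11, 23.4% and 17.6% for ACTG2 and 18.4% and 11.8% for CNN1. TAGLN was thus detected in most gated cells, and each of the other 3 in a minority at the depth of these libraries.

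The wider contractile list of 50 genes was read without ACTA2. In gated over RGS5-positive cells at 8 weeks, 22 of 49 measured genes were at least 2-fold lower and 3 at least 2-fold higher, with a median log2 ratio of −0.74; over all 14816 genes measured, 7.71% were lower, 6.43% higher and the median was 0.07. At 4 weeks 13 of 46 were lower and 5 higher, with a median of −0.39, where 9.25% of all 9588 genes were lower, 8.5% higher and the median was 0.02. Genes of ion handling were among the lower ones. KCNMB1, a subunit of the calcium-activated potassium channel, had 16.5 CPM in gated cells, against 111.6 in RGS5-positive cells at 8 weeks, and 16.5 against 63.1 at 4 weeks. CACNA1C, the L-type calcium channel, had 118.0 against 385.7 and 158.2 against 789.8 CPM; RYR2, a calcium release channel, had 29.7 against 251.0 and 47.2 against 339.4. Other abundant genes of the list ranged around the 2-fold limit. CALD1 (caldesmon) had 1207 against 1911 CPM at 8 weeks and 1405 against 1808 at 4 weeks, and TPM1 (tropomyosin 1) 970 against 1622 and 1261 against 1580. TPM2 (tropomyosin 2) had 441.2 against 957.5 CPM at 8 weeks and 415.4 against 607 at 4 weeks.

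Set against stroma, the same list ran the other way. At 8 weeks 15 of 48 contractile genes were at least 2-fold higher in gated cells and 1 lower (median log2 ratio 0.57, −0.09 over all genes), where 5.74% of all 18785 genes were higher and 8.43% lower. At 4 weeks 16 of 47 were higher and 2 lower (median 0.55, −0.07 over all genes), where 7.69% of 15085 genes were higher and 12.2% lower. MYL9, a myosin light chain, had 114.7 CPM in gated cells, against 30.3 in stroma at 8 weeks, and 118.0 against 36.2 at 4 weeks. SYNPO2, an actin-bundling protein of muscle, had 35.9 against 6.37 CPM at 8 weeks; at 4 weeks 11.8 against 9.53 CPM had a ratio interval that includes equality. Of 15 regulators of the contractile programme, MYOCD (myocardin, a coactivator of smooth muscle genes) had 1 UMI in the gated cells at 8 weeks and 0 at 4 weeks, against 7.1 and 13.1 CPM in RGS5-positive cells. CCN2, a target of the YAP and TGF-beta pathways, was higher than in stroma, with 158.1 against 43.3 CPM at 8 weeks and 262.0 against 82.1 at 4 weeks.

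The gated cells carried RNA of interstitial and stromal genes. The 4-week library held mesonephros as well as gonad, and which of these the cells came from was not tested. DCN, which encodes the proteoglycan decorin, had a per-cell median of 19.2 per 10000 (0 to 69.3) at 8 weeks and 16.6 (0 to 58.9) at 4 weeks. Its summed level was 1926 CPM (1868 to 1986) at 8 weeks, against 581 in RGS5-positive cells and 85.6 in endothelial cells, and 1624 CPM (1505 to 1750) at 4 weeks, against 383 and 15.2. After thinning, DCN was found in 89.1% and 84.3% of gated cells, against 46.8% and 37.3% of RGS5-positive and 12.8% and 1.92% of endothelial cells. The stroma gate was chosen by DCN, so its 2020 and 1591 CPM are no comparison. PDGFRA, the receptor that marks steroidogenic and myoid precursors in the mouse, had 198.7 CPM (180.2 to 218.6) in gated cells at 8 weeks, against 71.6 in RGS5-positive cells and 299.8 in stroma, and 193.6 (153.9 to 240.3) against 43.5 and 308.5 at 4 weeks. For PDGFRA the gated cells thus stood 2.77-fold (2.40 to 3.21) and 4.45-fold (2.70 to 7.66) over RGS5-positive cells, and below stroma.

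Of the Hedgehog pathway, 4 of 12 measured genes were at least 2-fold higher in gated than in RGS5-positive cells at 8 weeks and 0 lower, with a median log2 ratio of 0.63, where 6.43% of all genes were higher. At 4 weeks 5 of 11 were at least 2-fold higher and 0 lower, with a median of 0.81, where 8.5% of all genes were higher. PTCH1, the receptor and a target of the pathway, had 156.7 CPM (140.3 to 174.5) in gated cells at 8 weeks, against 59.4 in RGS5-positive and 27.7 in endothelial cells, and 160.5 (124.6 to 203.5) against 63.1 and 15.0 at 4 weeks. HHIP, an inhibitor that binds the ligand and is itself a target, had 41.5 CPM in gated cells, against 12 in RGS5-positive cells at 8 weeks, and 49.6 against 15.2 at 4 weeks. GLI1, the target that reports pathway activity in the mouse, had 25 against 12.5 CPM at 8 weeks, and 30.7 against 19.6 at 4 weeks with an interval of the ratio (0.620 to 4.15) that includes equality.

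Against stroma no measured Hedgehog gene was 2-fold higher. The stroma gate was chosen by DCN, and PTCH1 was higher in DCN-rich than in DCN-poor gated cells, so these ratios may be set in part by the gates. At 8 weeks none of 12 was 2-fold higher or lower, but all 12 were below stroma (median log2 ratio −0.32, −0.09 over all genes). Over all genes 5.74% were 2-fold higher and 8.43% lower. At 4 weeks 0 of 11 were 2-fold higher and 2 lower (median −0.04, −0.07 over all genes), where 7.69% and 12.2% of all genes were. PTCH1 had 196.9 CPM in stroma at 8 weeks and 149.3 at 4 weeks, and GLI1 31.2 at both, close to the gated cells. The ligand gene DHH had 4 UMIs in the gated cells at 8 weeks and 0 at 4 weeks.

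Factors of the gonadal interstitium in the peritubular myoid list were not alike. NR2F2, a factor of interstitial cells, differed little, with 360.1 CPM in gated cells, against 301.6 in RGS5-positive cells at 8 weeks, and 417.8 against 293.7 at 4 weeks. NR2F1 was lower, with 98.6 against 200.7 CPM and 167.6 against 221.9. TCF21, a factor of interstitial progenitors, had 100 CPM (87.0 to 114.5) in gated cells, against 45.4 in RGS5-positive cells and 72.1 in stroma at 8 weeks, and 82.6 (57.5 to 114.9) against 19.6 and 63.5 at 4 weeks. LHX9, needed for gonad formation in the mouse, had 136.4 against 65.6 and 148.7 CPM at 8 weeks, and 113.3 against 21.8 and 197.6 at 4 weeks. CXCL12, a chemokine that guides germ cells, had 503.5 CPM (473.8 to 534.7) in gated cells, against 210.2 in RGS5-positive cells and 487.4 in stroma at 8 weeks, and 229.0 (185.7 to 279.3) against 50.04 and 393.4 at 4 weeks. For CXCL12 the gated cells thus lay near stroma at 8 weeks, and between both groups at 4 weeks.

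Genes known from differentiated myoid cells of later testis were near the floor. GDNF, a growth factor that adult mouse myoid cells supply to spermatogonial stem cells, had 1 UMI in all gated cells at 8 weeks and 0 at 4 weeks. LIF, a cytokine of myoid cells, and TSPAN8 each had 1 UMI at either stage. Among steroid receptors, ESR1 had 7 UMIs at 8 weeks and 0 at 4 weeks, PGR had 0 at both, and NR3C1, the glucocorticoid receptor, had 79.8 and 85 CPM. Across the whole peritubular myoid list of 28 genes, 9 of 26 measured were at least 2-fold higher and 4 lower than in RGS5-positive cells at 8 weeks (median log2 ratio 0.30), where 6.43% of all genes were higher and 7.71% lower. At 4 weeks 10 of 23 were higher and 2 lower (median 0.62), where 8.5% and 9.25% were. Against stroma 3 of 26 were higher and 0 lower at 8 weeks (median −0.06), where 5.74% and 8.43% of all genes were, and 2 of 25 higher and 1 lower at 4 weeks (median 0.22), where 7.69% and 12.2% were. The stroma counts were thus near the background. Among those above stroma was NID1, which encodes the basement membrane protein nidogen 1, with 84 against 29.0 CPM at 8 weeks and 103.9 against 46.9 at 4 weeks; RGS5-positive cells had 196.4 and 184.9.

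Mural genes were low beside the RGS5-positive cells, and several were above stroma. At 8 weeks 15 of 26 measured genes were at least 2-fold higher than in stroma and at 4 weeks 9 of 19, where 5.74% and 7.69% of all genes were. Of the mural list without RGS5, 17 of 26 measured genes were at least 2-fold lower in gated than in RGS5-positive cells at 8 weeks (median log2 ratio −1.82). At 4 weeks 16 of 20 were (median −2.06), with 0 higher at either stage. Over all genes 7.71% and 9.25% were lower, and 6.43% and 8.5% higher. Mural genes tend to share cells with RGS5, which set the groups, so the counts describe the gate. MCAM, a cell adhesion protein, had 33.5 CPM (26.2 to 42.3) in gated cells, against 244.6 in RGS5-positive cells, 6.74 in stroma and 134.9 in endothelial cells at 8 weeks. At 4 weeks MCAM had 30.7 CPM (16.3 to 52.5), against 169.7, 5.29 and 88.0. CSPG4, the NG2 proteoglycan of pericytes, had 14.2 CPM in gated cells at both stages, against 74.9 and 74.0 in RGS5-positive cells and 7.49 and 5.47 in stroma.

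The receptor NOTCH3 differed less than MCAM and CSPG4. It had 146.3 CPM (130.5 to 163.5) in gated cells at 8 weeks, against 279.4 in RGS5-positive cells, 110.9 in stroma and 10.4 in endothelial cells, and 132.2 (99.9 to 171.7) against 291.6, 118.2 and 8.06 at 4 weeks. After thinning, NOTCH3 was found in 21.9% and 25.5% of gated cells, against 37.0% and 41.2% of RGS5-positive cells. Its targets and ligand differed more. HEY2, a target factor of Notch in arteries, had 9.44 CPM in gated cells, against 114.2 in RGS5-positive cells and 0.931 in stroma at 8 weeks, and 14.2 against 171.9 and 0.529 at 4 weeks. JAG1, a Notch ligand, had 68.4 CPM against 316.2 and 11.4, and 66.1 against 258.9 and 15.4. Of the Notch list, 9 of 11 and 9 of 10 genes were at least 2-fold lower than in RGS5-positive cells, where 7.71% and 9.25% of all genes were. Against stroma 8 of 12 were at least 2-fold higher at 8 weeks and 2 of 7 at 4 weeks, where 5.74% and 7.69% of all genes were. The Notch list shares NOTCH3, HEY2 and other genes with the mural list, so its counts also describe the gate.

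Against a pericyte gate, which by its own rule holds RGS5-high cells with at least 1 NOTCH3 UMI and ACTA2 under 10 per 10000 (23 cells at 8 weeks and 31 at 4 weeks), TAGLN, MYH11, ACTG2 and CNN1 were higher in gated cells at 8 weeks, with log2 ratios of 0.31, 0.52, 1.30 and 2.15. These genes climbed with ACTA2 at 8 weeks, and the pericyte gate caps ACTA2, so the direction is set in part by the rules. CNN1 was found in only 4.35% of the 23 cells. At 4 weeks the pericyte gate itself held RNA of kidney cells, with 432.6 CPM of NPHS1 (nephrin of podocytes), against 28.3 in the gated cells, and 204.7 of PAX8 (a tubule factor), against 2.36, and it is not read further.

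Several other mural genes were scarce or absent in the gate. HIGD1B, a pericyte gene, had 10 UMIs at 8 weeks and 0 at 4 weeks, against 46.0 and 32.6 CPM in RGS5-positive cells. NDUFA4L2, a mitochondrial protein abundant in pericytes, had 28.8 and 9.44 CPM, against 199.0 and 119.7. PLN (phospholamban) had 9 UMIs at 8 weeks and 0 at 4 weeks, and RERGL, an arterial smooth muscle gene, and TBX18 had 0 at both. Not all mural genes were 2-fold lower than in RGS5-positive cells, and EDNRA and ANGPT1 were among those within 2-fold at both stages. PDGFRB, also of the mural list, was found in 64.7% of gated and 74.3% of RGS5-positive cells at 8 weeks, and in 60.8% and 74.5% at 4 weeks. EDNRA, the endothelin receptor A, had 199.2 CPM in gated cells at 8 weeks, against 204.1 in RGS5-positive cells and 102.6 in stroma, and 129.8 against 213.2 and 107.1 at 4 weeks. ANGPT1, the angiopoietin that mural cells send to endothelium, had 37.3 CPM against 31.6 and 6.37, and 28.3 against 43.5 and 11.3. EBF1, a factor of pericyte and stromal lineages, was 6.46-fold (5.70 to 7.31) and 5.96-fold (4.87 to 7.26) over stroma, with 184.1 and 347.0 CPM in gated cells, and 3.66-fold and 3.92-fold below RGS5-positive cells. At 4 weeks EBF1 was found in 15 gated cells, with 43 of its 147 UMIs in 1 cell. Without that cell it had 248.1 CPM.

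**Figure D2:**
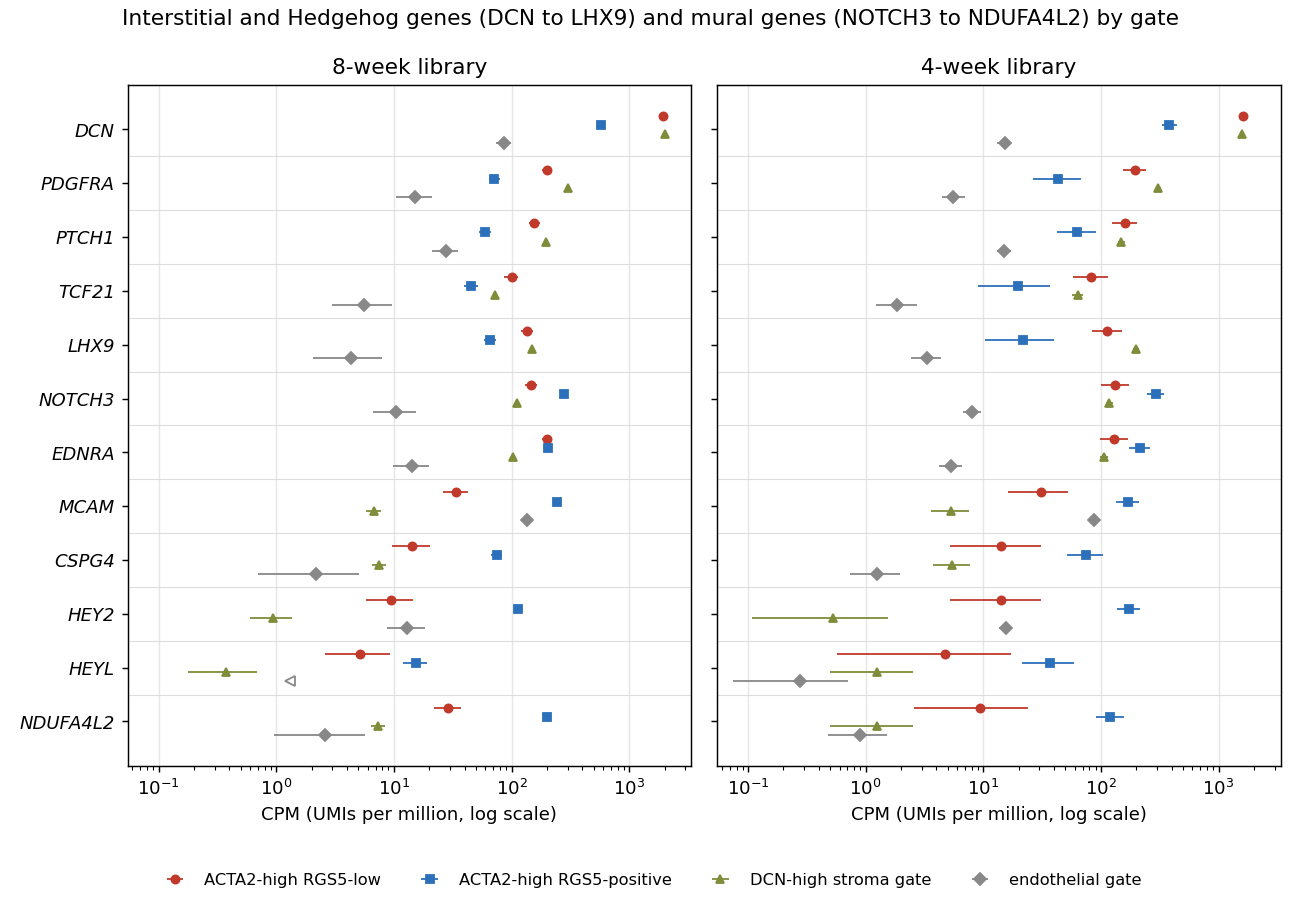
Interstitial and Hedgehog genes (DCN to LHX9) and mural genes (NOTCH3 to NDUFA4L2) by gate, in CPM on a log scale, with 1 panel per library; bars are 95% counting intervals and an open triangle is the upper limit of a count of 0. Gated cells lie above RGS5-positive cells for DCN to LHX9 (PTCH1 156.7 CPM, against 59.4 at 8 weeks) and below RGS5-positive cells for MCAM (33.5 against 244.6 CPM).

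Visceral and duct muscle genes gave mixed counts on few measured members. Compared with RGS5-positive cells, 2 of 11 measured genes were at least 2-fold higher and 5 lower at 8 weeks, where 6.43% and 7.71% of all genes were. At 4 weeks 1 of 7 was higher and 2 lower, where 8.5% and 9.25% of all genes were. BMP5, a growth factor, had 8.97 CPM in gated cells, against 78.7 in RGS5-positive cells at 8 weeks, and 4.72 against 82.7 at 4 weeks. Against stroma 4 of 12 were at least 2-fold higher and 2 lower at 8 weeks, where 5.74% and 8.43% of all genes were, and 1 of 13 higher and 3 lower at 4 weeks, where 7.69% and 12.2% were. BMP5 was among those above stroma at 8 weeks, on 19 UMIs in the gated cells. EMX2, a factor of the urogenital ridge, had 35.9 CPM in gated cells at 8 weeks and 18.9 at 4 weeks, and HAND2 had 10.4 and 26.0.

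A score per cell was the summed level of the 28 genes of the peritubular myoid list, and of 28 genes of the mural list, without ACTA2 and RGS5. The median myoid score of gated cells was 52.1 per 10000 at 8 weeks and 46.3 at 4 weeks, against 35.0 and 33.2 in RGS5-positive cells and 52.6 and 49.0 in stroma. The median mural score of gated cells was 7.76 and 6.77, against 30.6 and 36.6 in RGS5-positive cells and 5.89 and 6.07 in stroma. The myoid score exceeded the mural score in 190 of 201 gated cells at 8 weeks (94.5%, 90.4 to 97.2) and in 45 of 51 at 4 weeks (88.2%, 76.1 to 95.6), against 184 of 327 (56.3%) and 25 of 51 (49.0%) RGS5-positive cells. That order describes the gate and does not type the cells, because mural genes share cells with RGS5, and because the myoid list is the more abundant: endothelial cells also had a median myoid score of 29.3 against a mural score of 15.6 at 8 weeks, and 13.1 against 12.3 at 4 weeks. The difference in the summed myoid score between the ACTA2-high groups rests on DCN, the most abundant gene of the list. Other genes of the list also differed, in both directions. Without DCN the median myoid score was 30.1 in gated and 30.8 in RGS5-positive cells at 8 weeks, and 28.9 and 30.3 at 4 weeks. The mural difference remained without its most abundant gene, EDNRA at 8 weeks and EBF1 at 4 weeks, with medians of 6.12 in gated and 29.0 in RGS5-positive cells, and 6.77 and 23.5.

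**Figure D3:**
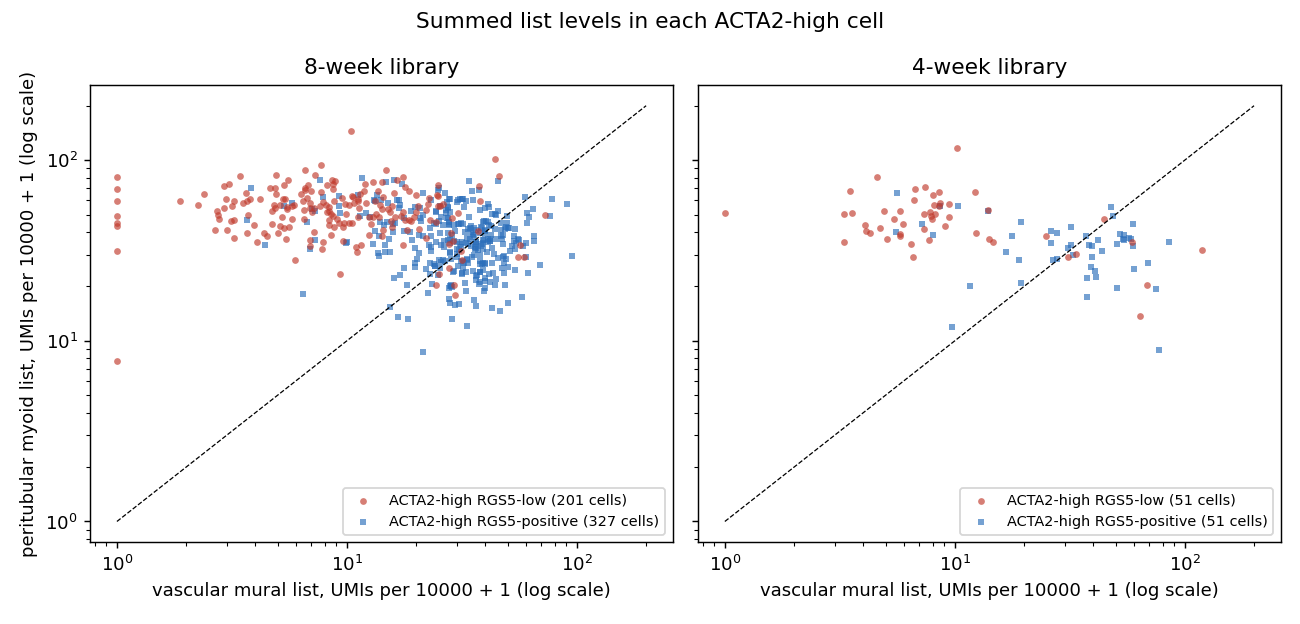
Summed level per cell of the peritubular myoid list and of the vascular mural list, in UMIs per 10000, on log scales after adding 1, for gated and RGS5-positive ACTA2-high cells, with 1 panel per library and 1 point per cell; the dashed line marks equal scores. Gated cells lie at low mural scores (median 7.76 at 8 weeks and 6.77 at 4 weeks), with a few cells among the RGS5-positive ones (30.6 and 36.6).

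The gated cells were not uniform, and a minority was poor in DCN. DCN was under 5 per 10000 in 19 of 201 cells (9.45%) at 8 weeks and 8 of 51 (15.7%) at 4 weeks, against 221 of 327 (67.6%) and 39 of 51 (76.5%) RGS5-positive cells. At 8 weeks the DCN-poor gated cells had 4174 CPM of ACTA2, against 1529 in the DCN-rich ones, TAGLN at 2817 against 986 CPM, ACTG2 at 232.8 against 35.1, and MCAM at 152.5 against 26.1. PTCH1 ran the other way, with 24.1 CPM in DCN-poor and 165.0 in DCN-rich gated cells. At 4 weeks the DCN-poor cells had TAGLN at 2118 against 797 CPM, MYH11 at 235.3 against 33.3 and MCAM at 141.2 against 11.1, and 0 PTCH1 UMIs, which allows up to 47.1 CPM, against 188.9. This split was made after the values were seen. At 8 weeks the DCN-rich RGS5-positive cells, 106 in number, had 110.2 CPM of PTCH1 and 118.3 of MCAM, values between those of the DCN-poor and DCN-rich gated cells.

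Bands of ACTA2 in all RGS5-low barcodes showed how other genes varied around the limit of the gate. The bands of 1 to 5, 5 to 10, 10 to 20 and 20 or more per 10000 held 2914, 532, 154 and 47 barcodes at 8 weeks, and 602, 136, 45 and 6 at 4 weeks. TAGLN had 163.6, 446.8, 891.5 and 2064 CPM in these bands at 8 weeks, and 214.3, 629.5, 923 and 1671 at 4 weeks. ACTG2 had 5.14, 15.7, 32.5 and 114.8 CPM at 8 weeks and 5.79, 13.6, 23.5 and 48.4 at 4 weeks. DCN had 1941, 2142, 2004 and 1556 CPM at 8 weeks, and PTCH1 198.1, 177.8, 166.5 and 109.4. At 4 weeks DCN had 1118, 1491, 1737 and 581 CPM and PTCH1 136.1, 211.5, 175.2 and 24.2, with only 6 barcodes behind the last value. Not every contractile gene followed ACTA2, nor did every matrix gene stay level: at 8 weeks DES had 106.0, 120.7, 108.4 and 82.0 CPM across the bands, and COL3A1 had 1155, 1561, 1837 and 2012. TAGLN thus climbed through the ACTA2 limit of the gate, and at 8 weeks DCN and PTCH1 differed little between the bands on either side of it. Within the band of 10 to 20 per 10000 alone, where ACTA2 was alike in both groups, gated cells at 8 weeks had 891.5 CPM of TAGLN, 2004 of DCN and 27.9 of MCAM, against 1205, 899 and 157.5 CPM in RGS5-positive cells. In that band the log2 ratios of gated over RGS5-positive cells at 8 weeks were −0.44 for TAGLN, −0.76 for MYH11, −0.98 for ACTG2, −1.07 for CNN1 and −2.48 for MCAM. The contractile ratios were therefore smaller than over all ACTA2 levels, and at 4 weeks that of CNN1 was 0.89, the other direction. These bands were chosen after the data were seen.

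**Figure D4:**
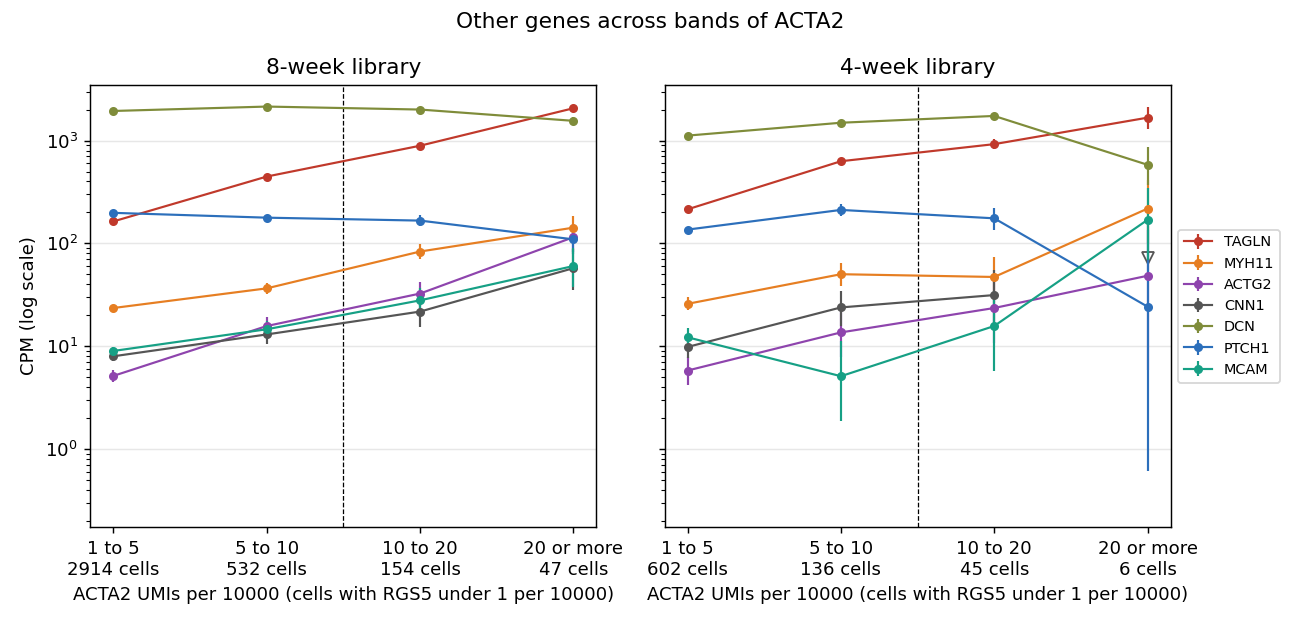
Levels of other genes in RGS5-low barcodes across 4 bands of ACTA2 (UMIs per 10000), in CPM on a log scale, with 1 panel per library; bars are 95% counting intervals, the 2 bands right of the dashed line are the gated cells, and an open triangle is the upper limit of a count of 0. TAGLN climbs through the bands (163.6 to 2064 CPM at 8 weeks) without a step, while DCN stays between 1556 and 2142 CPM at 8 weeks.

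Genes with the most uneven levels between gated and RGS5-positive cells were taken by the smaller ratio of both stages. Of 1720 eligible genes, 1226 differed in the same direction at both stages, 62 of them by at least 2-fold upward and 83 downward in both. Among the highest was DPYSL3, a cytoskeletal protein, at 4.06-fold at 8 weeks and 5.49-fold at 4 weeks. COLEC12, a scavenger receptor, followed with 3.92-fold and 9.22-fold, ADAMTS19, a secreted protease, with 3.82-fold and 4.42-fold, and C7, a complement component, with 3.46-fold and 3.92-fold. TENM3 stood at 3.30-fold and 3.57-fold, ABCA9 at 3.26-fold and 5.42-fold, NRK at 3.21-fold and 3.75-fold, and OSR2, a factor of mesonephric and other mesenchyme, at 3.08-fold and 6.15-fold. DCN belonged to this set, at 3.32-fold (3.16 to 3.48) and 4.24-fold (3.59 to 5.03).

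Lowest in gated over RGS5-positive cells was HEY2, 12.1-fold lower at each stage. CHRM3, the muscarinic receptor of smooth muscle, was 9.66-fold and 12.9-fold lower, RASL11A 7.92-fold and 8.61-fold, RELN (reelin) 11.3-fold and 7.19-fold, and RYR2 8.45-fold and 7.19-fold. ITGA7, the laminin receptor of muscle, was 7.16-fold lower at 8 weeks; at 4 weeks it had 1 UMI in the gated cells. ANGPT2 was 7.37-fold and 6.64-fold lower and NDUFA4L2 6.91-fold and 12.7-fold.

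Against all other barcodes of the same library, 13.1% of 24179 genes were at least 2-fold higher in gated cells and 12.2% lower at 8 weeks. At 4 weeks 32.5% of 24677 were higher and 13.5% lower. The 0.5 UMI added to each sum weighs more in the smaller gated sum. Genes near the floor can thus be called higher without a gated UMI, which raises the shares of higher genes. The median log2 ratio over all genes was −0.02 at 8 weeks and 0.26 at 4 weeks. Apart from ACTA2, TAGLN led at 5.63-fold and 12-fold. It was followed by CCN2 at 3.16-fold and 2.81-fold, MYL9 at 2.74-fold and 4.89-fold, TPM2 at 2.38-fold and 5.30-fold, EDNRA at 2.37-fold and 4.89-fold, and CALD1 at 2.23-fold and 4.93-fold. GUCY1B1, a subunit of the nitric oxide receptor guanylate cyclase, stood at 2.23-fold and 2.34-fold, COL3A1 (collagen III) at 2.16-fold and 6.84-fold, and MGP (matrix Gla protein) at 2.14-fold and 7.58-fold. Of 1475 eligible genes 15 were at least 2-fold higher at both stages.

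Fibrillar collagens were abundant in the gated cells. COL1A1, a chain of collagen I, had 1455 CPM at 8 weeks and 1546 at 4 weeks, and COL3A1 had 1867 and 1721, against 1080 and 987 in stroma. Of the collagen and basement membrane list, 8 of 28 genes at 8 weeks and 8 of 27 at 4 weeks were at least 2-fold lower than in RGS5-positive cells, and 2 and 3 higher. Over all genes 7.71% and 9.25% were lower, and 6.43% and 8.5% higher, so the higher counts were near the background. COL4A1, a chain of basement membrane collagen IV, had 261.0 CPM in gated cells, against 1233 in RGS5-positive cells and 93.7 in stroma at 8 weeks, and 736.5 against 2256 and 168.2 at 4 weeks. LAMA4, a laminin chain of vessels and muscle, had 128.4 against 437.3 CPM in RGS5-positive cells at 8 weeks, and 106.2 against 583 at 4 weeks. The elastic fibre and proteoglycan list was mixed, with 5 of 25 genes higher and 3 lower at 8 weeks, and 3 of 22 higher and 2 lower at 4 weeks.

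Of 18 measured G2 and M phase genes, all 18 were below RGS5-positive cells at both stages, mostly by less than 2-fold. At 8 weeks 0 were at least 2-fold lower (median log2 ratio −0.42, 0.07 over all genes). At 4 weeks 3 were (median −0.55, 0.02 over all genes), and 0 were 2-fold higher at either stage. S phase genes differed little, with 0 of 17 past 2-fold at 8 weeks (median 0.17). MKI67 had 65.6 CPM in gated cells at 8 weeks and 101.5 at 4 weeks, and TOP2A 151.5 and 240.8. A UMI of MKI67 was found in 33 of 201 gated cells at 8 weeks (16.4%) and 3 of 51 at 4 weeks (5.88%). For MKI67 the share of cells thus ran opposite to the summed level. Of 18 measured immediate early genes, which rise in cells under tissue digestion, 1 was at least 2-fold lower at each stage and 0 were higher. The BMP and TGF-beta list had 1 of 22 genes at least 2-fold higher and 3 lower at 8 weeks, and 0 of 14 higher and 3 lower at 4 weeks. Over all genes 6.43% were higher and 7.71% lower at 8 weeks, and 8.5% and 9.25% at 4 weeks.

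Between the stages the gated cells were compared as 8 weeks over 4 weeks, which are single libraries. Of 12496 genes measured, 9.8% were at least 2-fold higher at 8 weeks and 8.34% lower, with a median log2 ratio of −0.02. Of the contractile list, 1 of 46 genes was at least 2-fold higher and 5 at least 2-fold lower. Most changes were small and downward, with 33 of 46 below equality and a median log2 ratio of −0.21. TAGLN, MYH11, ACTG2, CNN1, DES, PTCH1, NOTCH3 and MCAM all stayed within 2-fold, except that MYH11 reached a log2 ratio of 1.32 when the DCN-poor gated cells were left out. The 5 lower genes included PCP4, VCL (vinculin, 261.9 against 538.2 CPM) and the integrins ITGA1 (36.8 against 87.3 CPM) and ITGA5. SYNPO2 was the higher one, with 35.9 against 11.8 CPM. In stroma 0 of 48 contractile genes were higher and 7 lower, where 7.0% and 10.1% of 19353 genes were higher and lower. The median log2 ratio of the list there was −0.34, with −0.07 over all genes.

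The BMP and TGF-beta list had 5 of 20 genes at least 2-fold higher in 8-week gated cells and 0 lower, where 9.8% and 8.34% of all genes were. In that list 11 of 20 were below equality and the median log2 ratio was −0.14. Its higher genes held ID1 and ID3, known as targets of BMP signalling. ID1 had 693.7 CPM at 8 weeks, against 231.3 at 4 weeks, a ratio of 3.0 (2.44 to 3.72), and ID3 had 474.8 against 139.3, a ratio of 3.41 (2.62 to 4.51). The same ratios in stroma were 1.26 and 1.54. ELN, which encodes elastin, had 257.7 against 87.3 CPM, a ratio of 2.95 (2.11 to 4.24), and MFAP2, a microfibril protein, 817 against 335 CPM, a ratio of 2.44 (2.05 to 2.91), with 1.68 and 1.82 in stroma. LUM (lumican) had 157.6 against 77.9 CPM. COL4A1 and COL4A2 were lower at 8 weeks, by 2.82-fold and 2.54-fold, and COL18A1 by 2.31-fold. CXCL12 stood at a ratio of 2.20 (1.79 to 2.74), with 1.24 in stroma. ABCC9, a potassium channel subunit of mural cells, had 106.2 against 42.5 CPM, and the mural list had 7 of 21 genes at least 2-fold higher and 2 lower, with a median of 0.31. The difference of these ratios between gated cells and stroma was not tested.

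**Figure D5:**
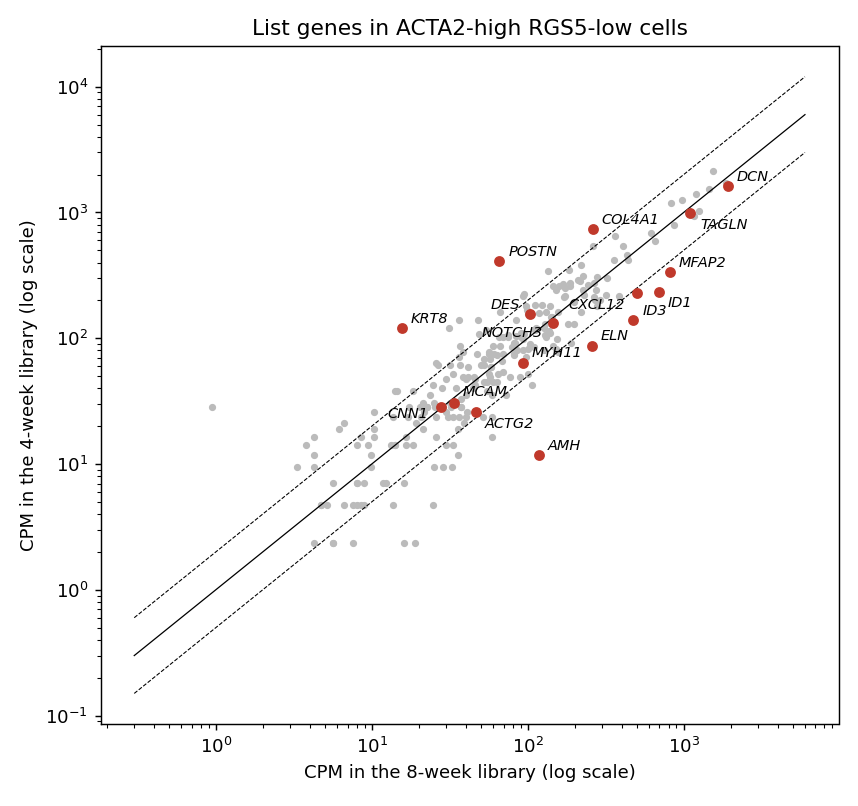
Levels of the list genes in gated cells, in CPM at 8 weeks (horizontal, log scale) and at 4 weeks (vertical, log scale); the solid line marks equal levels, dashed lines 2-fold, and labelled genes are in red. ID1, ID3, ELN and MFAP2 lie below the lower dashed line, COL4A1 above the upper one, and TAGLN, DES and MYH11 between them.

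The genes of highest 8-week over 4-week ratio held CRABP2, a retinoic acid binding protein, with 461.1 against 108.6 CPM (4.25-fold, 3.16 to 5.84), and NR0B1, the nuclear receptor DAX1, with 519.1 against 144.0 CPM (3.61-fold, 2.79 to 4.75). NR0B1 had a UMI in 90.5% of gated cells at 8 weeks and 54.9% at 4 weeks, and in stroma 482.6 against 255.0 CPM, and in endothelial cells 21.6 against 2.55. CDH13, a cadherin, had 160.0 against 35.4 CPM in gated cells, where stroma had 204.3 against 207.0. AMH, the Sertoli cell hormone, had 117.5 against 11.8 CPM in gated cells. It also had 73.1 against 32.2 CPM in endothelial cells and 110.7 against 24.9 in stroma, which should not express it. The part of free Sertoli cell RNA in the AMH difference was not tested.

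Several genes of lowest ratio rested on a single 4-week cell. POSTN (periostin) had 65.6 CPM at 8 weeks, against 410.7 at 4 weeks, but 161 of its 174 UMIs at 4 weeks were in 1 cell of 8661 UMIs. Without the cell of most POSTN UMIs in each library it had 58.7 against 31.3 CPM, so its direction turned. KRT8 had 15.6 against 120.4 CPM, and 40 of 51 UMIs at 4 weeks were in 1 cell of 18811 UMIs, without which it had 27.2. IGFBP5 had 15.6 against 134.5 CPM, with 36 of its 57 UMIs at 4 weeks in that same cell and 51.9 CPM without it. CRIP1 had 44.4 against 200.6 CPM, with 55 of 85 UMIs there and 74.1 CPM without it. GALNTL6 had 1.42 against 179.4 CPM, with its 76 UMIs at 4 weeks in 3 cells. S100G, a calcium-binding protein, was spread: it had 1.89 CPM at 8 weeks, against 151.1 at 4 weeks with a UMI in 37 of 51 cells (72.5%) and no more than 4 in any of them.

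Markers of other cell types were looked for in each gated cell, as 5 or more per 10000 over a marker list with at least 2 of its genes. They were found in 33 of 201 gated cells at 8 weeks (16.4%, 11.6 to 22.3) and 5 of 51 at 4 weeks (9.8%, 3.26 to 21.4), against 11.6% and 7.84% of RGS5-positive cells and 45.2% and 75.5% of all other barcodes. At 8 weeks 10 cells held steroidogenic markers, 10 surface epithelium, 7 Sertoli, 3 macrophage, 2 endothelial and 1 germ cell markers. At 4 weeks surface epithelium markers were held by 2 cells, and endothelial, steroidogenic, tubule and podocyte markers by 1 cell each. All 7 macrophage markers were at 0 in the gated cells at 4 weeks. Of the gated cells, 8 of 201 and 0 of 51 were among the top 6% of doublet scores of their library, against 10.4% and 0% of RGS5-positive cells. When the cells with markers of another type were left out, the recomputed counts, list medians and gene ratios against RGS5-positive cells and between the stages kept their direction, except the log2 ratio of CNN1 between the stages, which was 0.67 in place of −0.07.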

How the data were processed

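Per the file headers, the authors ran Cell Ranger 7.1.0 and deposited raw UMI counts, whole numbers for 38517 features by barcode, for 2 libraries. The submitters' processing notes name version 2.1.1. A DNBelab C kit is named in the labels, whereas barcodes look like those of 10x Genomics chemistry, and how this affects UMI counting is unknown. Genome build, annotation and treatment of intronic reads are not given in these sources. A RefSeq donkey gene table gave symbols to 768 locus identifiers, among them MGP. No genome was used here, so no sequence or coordinate is given.

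From the deposited counts, UMIs were summed per gate and library and scaled to CPM with exact Poisson intervals. Ratios carry exact conditional binomial intervals. For log2 ratios 0.5 UMI was added to each sum, and a gene was measured with at least 10 UMIs over both sums and called at 2-fold. Shares carry Clopper-Pearson intervals, all at 95%, and a count of 0 was given the limit of 3 counts. These cover counting error only. Scrublet in scanpy 1.11.5 called 0 and 2 barcodes as doublets at 8 and 4 weeks, so it did not work here and none were removed. The ratio code was tested on simulated data. The members and the 14 gene lists were chosen with earlier results of these data known. Single genes named beyond the lists came from the top 12 and bottom 12 by ratio (the top 20 against all other barcodes) among those of at least 100 CPM and, between gates or stages, 50 UMIs, of which part is printed. Analyses used Python 3.11.15, numpy 2.4.6, scipy 1.17.1 and pandas 2.3.3. Some genes of the lists are not reported here.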

Additional observations from a re-analysis of the deposited data

How the results depend on the processing

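The size of the gate depended on its limits. The 8-week share was 2.11% with at least 5000 UMIs, 1.54% with at least 1000, 0.424% with ACTA2 at 20 or more per 10000, 4.83% at 5 or more, 1.53% with no RGS5 UMI allowed, 2.66% with RGS5 under 3 per 10000, and 6.64% after thinning to 2000 UMIs with its limit of 2 ACTA2 UMIs. The 4-week share was 0.0775%, 1.92% and 2.04% with ACTA2 at 20 or more, at 5 or more, and after thinning. With at least 50 UMIs over both sums fewer genes were tested: 466 were at least 2-fold higher and 276 lower at 8 over 4 weeks, and in gated over RGS5-positive cells 372 were higher and 590 lower at 8 weeks, and 142 higher and 225 lower at 4 weeks. With at least 10 per 10000 and 3 genes of another cell type, 3.48% of gated cells at 8 weeks held such markers. With the pericyte gate as the comparison, 1937 genes were higher at 8 weeks, and 1397 higher and 1731 lower at 4 weeks, where that gate held kidney RNA, so its 4-week values are given as values only. Log2 ratios then turned positive for TAGLN (0.31), MYH11 (0.52), ACTG2 (1.30) and CNN1 (2.15) at 8 weeks, and at 4 weeks for MYH11 (0.38), ACTG2 (3.80), NOTCH3 (0.19), MCAM (0.58), CSPG4 (1.11) and the mural list's median (0.38). That gate selects on ACTA2, RGS5 and NOTCH3, so its NOTCH3 ratio and the ratios of contractile genes that climb with ACTA2 are set in part by its rule. Of the other values, 504 of 619 stayed within counting error (medians within 0.5), 105 moved further, and 10 that were past 2-fold turned, those just named. Values within 2-fold also turned, among them the 4-week CNN1 ratio in the matched ACTA2 band (0.89, against −0.66). The pericyte comparison, the matched ACTA2 band and the removal of DCN-poor cells were chosen after seeing the data. The 4-week values rest on 51 cells with 423644 UMIs. No paired analysis was possible because each stage is 1 library.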
